A study of Mus musculus with 7 samples.

Results

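The genes described here are 9 antagonists of bone morphogenetic proteins (BMPs), activins and myostatin, measured in the retinal pigment epithelium (RPE) of mice, the pigmented layer behind the photoreceptors. They are Wfikkn1, Wfikkn2, Nog, Fst, Fstl3, Chrd, Chrdl1, Grem1 and Bambi, and all 9 of 9 were measured, among 19938 genes in all. The list was chosen by function and with the difference between Mfrp rd6 and wild type in view, the low values of Wfikkn2 and Nog in the mutant among them. That difference is therefore given for these genes as a description, with no p-value, and it supports nothing by itself.

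The ligands of the TGF-beta family are secreted dimers that bind type I and type II receptor kinases and act through SMAD transcription factors. Antagonists hold them in check by binding the ligand outside the cell, or, in the case of a decoy receptor, by taking a place in the receptor complex without a kinase. In the eye, BMPs take part in patterning the optic cup and in the formation of the RPE, and BMP genes of the RPE have been studied for their response to eye growth. Mfrp encodes a frizzled-related transmembrane protein of the RPE, and its loss leads to retinal degeneration.

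RNA came from 4 wild-type samples (WT) and 3 Mfrp rd6 samples, all from C57Bl/6J mice, with 1 whole-transcript array per sample. The RPE was shaken loose from opened eyecups, a collection that can take along other cells. The labels give 2 versions of age. In the age field the WT samples are 8 weeks and the Mfrp rd6 samples 12 weeks, and age then cannot be told apart from genotype. In the growth protocol all samples are 8 weeks except Mfrp rd6 replicate 1, at 12. The rd6 allele is carried by the whole animal. The number of animals behind each sample is not given in the sources used here, so a p-value reflects how these samples vary, and that variation may be technical.

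On the log2 scale of the arrays, the mean of 10 RPE markers lay between 11.27 and 11.40 on every array. Single RPE markers differed by -0.40 to 0.28, with 3 of the 10 not overlapping between the groups and 1 past the threshold as lower. Over all genes, 15.3% did not overlap between the groups and 2.15% were past the threshold (limma adjusted p under 0.05). Markers of other cell types also differed between the groups. The mean of 10 microglia and macrophage markers was 7.56 to 7.70 in WT and 9.46 to 10.02 in Mfrp rd6. That of 10 skeletal muscle markers was 6.81 to 8.13 and 8.18 to 9.23, and that of 7 endothelial markers 6.71 to 7.24 and 7.34 to 7.76. The mean of 8 rod markers overlapped, at 6.80 to 8.16 and 6.58 to 7.09. Some markers were lower in the mutant. The mean of 6 surface epithelium markers was 11.58 to 11.76 in WT and 11.37 to 11.47 in Mfrp rd6, with 4 of the 6 lower on every mutant array and 0 past the threshold, and that of 7 fibroblast markers was 6.84 to 6.95 and 6.53 to 6.73. Lens markers stood at 7.74 on Mfrp rd6 replicate 2 and at 5.21 to 5.45 on the other arrays. The probe set shared by Mfrp and its neighbour C1qtnf5 read 11.33 ± 0.12 (SD, n = 4) in WT and 11.17 ± 0.07 (SD, n = 3) in Mfrp rd6, which does not check the genotype, since the 2 genes share it.

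These 3 promoters are shown because they belong to the antagonist with the largest difference between the groups (Wfikkn2), to its closest relative in the list (Wfikkn1) and to the gene with the highest positive difference (Chrd). The RefSeq promoter table (GRCm38.p6) held 5 of the 9 genes, and each entry runs from 250 bases before to 50 after a gene start, 5′ to 3′ on the gene's strand. Wfikkn2 lies at chr11:94242530-94242829 (minus strand), Wfikkn1 at chr17:25880809-25881108 (minus strand) and Chrd at chr16:20732877-20733176 (plus strand). Capitals mark matches, on either strand, to 5 motifs that were searched.
Wfikkn2: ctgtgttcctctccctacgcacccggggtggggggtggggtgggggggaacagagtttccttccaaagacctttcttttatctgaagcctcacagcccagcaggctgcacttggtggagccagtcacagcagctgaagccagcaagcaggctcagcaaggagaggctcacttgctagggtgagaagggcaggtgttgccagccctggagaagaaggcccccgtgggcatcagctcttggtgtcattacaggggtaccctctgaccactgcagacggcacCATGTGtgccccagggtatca
Wfikkn1: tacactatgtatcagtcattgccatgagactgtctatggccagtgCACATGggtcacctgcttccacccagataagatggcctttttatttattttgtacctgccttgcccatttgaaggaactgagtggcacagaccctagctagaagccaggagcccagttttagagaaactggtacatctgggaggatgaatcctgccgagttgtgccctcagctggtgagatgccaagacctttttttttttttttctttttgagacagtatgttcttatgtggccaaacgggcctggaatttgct
Chrd: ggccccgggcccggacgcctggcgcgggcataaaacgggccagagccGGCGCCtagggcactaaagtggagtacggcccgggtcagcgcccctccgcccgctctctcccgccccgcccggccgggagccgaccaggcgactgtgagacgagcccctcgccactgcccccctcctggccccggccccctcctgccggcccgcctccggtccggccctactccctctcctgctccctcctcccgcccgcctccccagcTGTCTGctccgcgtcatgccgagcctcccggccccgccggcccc

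The motifs were GGCGCC, known for BMP-type SMADs, then CAGACA for SMADs of the TGF-beta type, then TAATCC for OTX2. For MITF they were CACGTG and CATGTG, which is only the core of the longer M-box. OTX2 and MITF are both regulators of RPE genes. The Wfikkn2 promoter held 1 match, CATGTG at bases 280 to 285 of the window, just after the start site. The Wfikkn1 promoter held the same motif on the other strand at bases 46 to 51. Of all 32851 promoters in the table, 14.2% hold this motif. The Chrd promoter held GGCGCC at bases 48 to 53, as did 11.9% of all promoters, and CAGACA on the other strand at bases 257 to 262, as did 21% of all. Grem1 also held GGCGCC and Fstl3 also held CAGACA. The OTX2 motif and CACGTG, found in 7.06% and 7.15% of all promoters, were in none of the 5 windows. The G and C content was 60% for Wfikkn2, 46% for Wfikkn1 and 78.3% for Chrd, against a median of 52.7%. A match is only a run of letters and does not show that a factor binds.

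Wfikkn2, also called GASP-1, is a secreted protein with several protease-inhibitor-like domains that binds myostatin and its relative GDF11. On its brighter probe set (10389879) the WT arrays read 10.71, 11, 10.97 and 11.08, and the Mfrp rd6 arrays read 8.78, 8.47 and 8.83. All mutant arrays were low, and the groups stood 1.88 log2 units apart at their nearest arrays. The group means were 10.94 ± 0.16 (SD, n = 4) and 8.69 ± 0.20 (SD, n = 3), so the mutant differed by -2.25 (SE 0.11), which is 4.75-fold lower. Of the 19938 genes, 4 had a larger negative difference. In RNA from mixed tissue, fewer cells of a type and less RNA per cell cannot be told apart.

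A second probe set for Wfikkn2 (10389877) was dimmer and gave nearly the same difference. Its WT arrays read 8.75, 9.34, 9.02 and 9.32, and its Mfrp rd6 arrays 7.02, 6.84 and 6.96. The groups were again fully apart, with a difference of -2.17 (SE 0.14), or 4.49-fold lower. WT replicate 1 was the lowest WT array and Mfrp rd6 replicate 2 the lowest mutant array on both probe sets. Wfikkn2 was the only one of the 9 genes with more than 1 probe set.

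Wfikkn1, the paralogue of Wfikkn2 with the same domain order and the same known ligands, did not share this difference. The WT arrays read 7.23, 6.94, 7.10 and 7.01 and the Mfrp rd6 arrays 7.02, 6.83 and 7.03. The arrays of the groups overlapped, with a difference of -0.11 (SE 0.09).

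Nog encodes noggin, which binds BMPs and blocks the surfaces by which they reach their receptors. Its WT arrays (probe set 10389752) read 8.45, 9.28, 8.88 and 8.52, and its Mfrp rd6 arrays read 7.35, 7.30 and 7.51. The WT arrays spread over 0.83 log2 units, the widest range of the 9 genes, yet all lay at least 0.94 above every mutant array. The group means were 8.78 ± 0.38 (SD, n = 4) and 7.39 ± 0.11 (SD, n = 3), so the mutant differed by -1.40 (SE 0.18), or 2.63-fold lower. The surface epithelium and fibroblast markers were lower on the same arrays as Wfikkn2 and Nog, and their part in these differences was not tested. Without Mfrp rd6 replicate 1, which leaves equal ages under the growth protocol, the difference was -1.38 for Nog and -2.29 for Wfikkn2.

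Chrd encodes chordin, a cysteine-rich BMP-binding protein that extracellular proteases cleave to free the ligand. It was higher in the mutant, with WT arrays (probe set 10434528) at 7.01, 6.96, 7.10 and 6.98 and Mfrp rd6 arrays at 7.47, 7.51 and 7.44. The groups did not overlap and both were tight, with a spread of 0.14 in WT and 0.07 in Mfrp rd6. The difference was 0.46 (SE 0.07), or 1.38-fold higher. Chrd was thus the one BMP-binding antagonist of the list with higher values in every mutant array, while noggin had lower values in every one. The Chrd difference was 0.34 once the muscle marker mean entered the fit as a covariate.

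The other 5 genes overlapped between the groups as Wfikkn1 did. Chordin-like 1 (Chrdl1), a relative of chordin, had the widest spread among them. Its WT arrays read 7.47, 7.03, 6.93 and 7.55, and its Mfrp rd6 arrays 7.16, 6.67 and 7.19, a difference of -0.24 (SE 0.18). WT replicates 1 and 4 and Mfrp rd6 replicates 1 and 3 were the high arrays of their groups. The mean of 7 ciliary and iris epithelium markers was high on the same arrays, at 8.87 and 8.96 in those WT replicates against 8.56 and 8.64 in replicates 2 and 3. In Mfrp rd6 it was 8.91 and 8.71 in replicates 1 and 3 and 8.58 in replicate 2. The part of those cells in the Chrdl1 signal was not tested. The sign of the Chrdl1 difference turned to 0.33 with the muscle mean as a covariate.

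The activin-binding proteins differed little. Follistatin (Fst), which wraps around activin and masks its receptor sites, read 6.14, 5.77, 5.65 and 5.90 in WT and 5.92, 6.00 and 5.86 in Mfrp rd6. The difference of 0.06 (SE 0.11) was smaller than the spread within WT, and Fst was dim on all arrays. Its relative Fstl3, which binds activin and myostatin, read 8.37, 8.46, 8.27 and 8.59 in WT and 8.52, 8.50 and 8.49 in Mfrp rd6. The mutant arrays of Fstl3 lay within 0.03 of each other and inside the WT range, with a difference of 0.08 (SE 0.08). Both changed sign in some alternatives, Fstl3 to -0.02 with the rod mean as a covariate and Fst to -0.05 when WT replicate 3 and Mfrp rd6 replicate 2 were both left out.

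Gremlin 1 (Grem1), a cystine-knot protein that binds BMPs, was dim, with WT arrays at 5.79, 5.66, 5.74 and 5.69 and Mfrp rd6 arrays at 5.66, 5.68 and 5.73. Bambi is the membrane decoy of the list, a pseudoreceptor shaped like a type I receptor but without its kinase. It read 7.24, 7.18, 7.37 and 7.43 in WT and 7.49, 7.32 and 7.45 in Mfrp rd6. Both genes overlapped between groups, with differences of -0.03 (SE 0.07) for Grem1 and 0.12 (SE 0.08) for Bambi. The Bambi difference was -0.01 with the endothelial mean as a covariate.

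In all, the arrays of the groups did not overlap for 3 of the 9 genes, Wfikkn2, Nog and Chrd, where 15.3% of all genes had arrays that did not overlap. The fit over all genes (limma, Benjamini-Hochberg adjusted p under 0.05) includes the 9, and 1 of them was past its threshold as higher and 2 as lower. Over all 19938 genes, 2.15% were called, 1.34% higher and 0.813% lower. Nothing is read from these counts, because the same comparison helped to choose the genes. The median difference of the 9 was -0.03, against -0.02 for all genes.

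**Figure D1:**
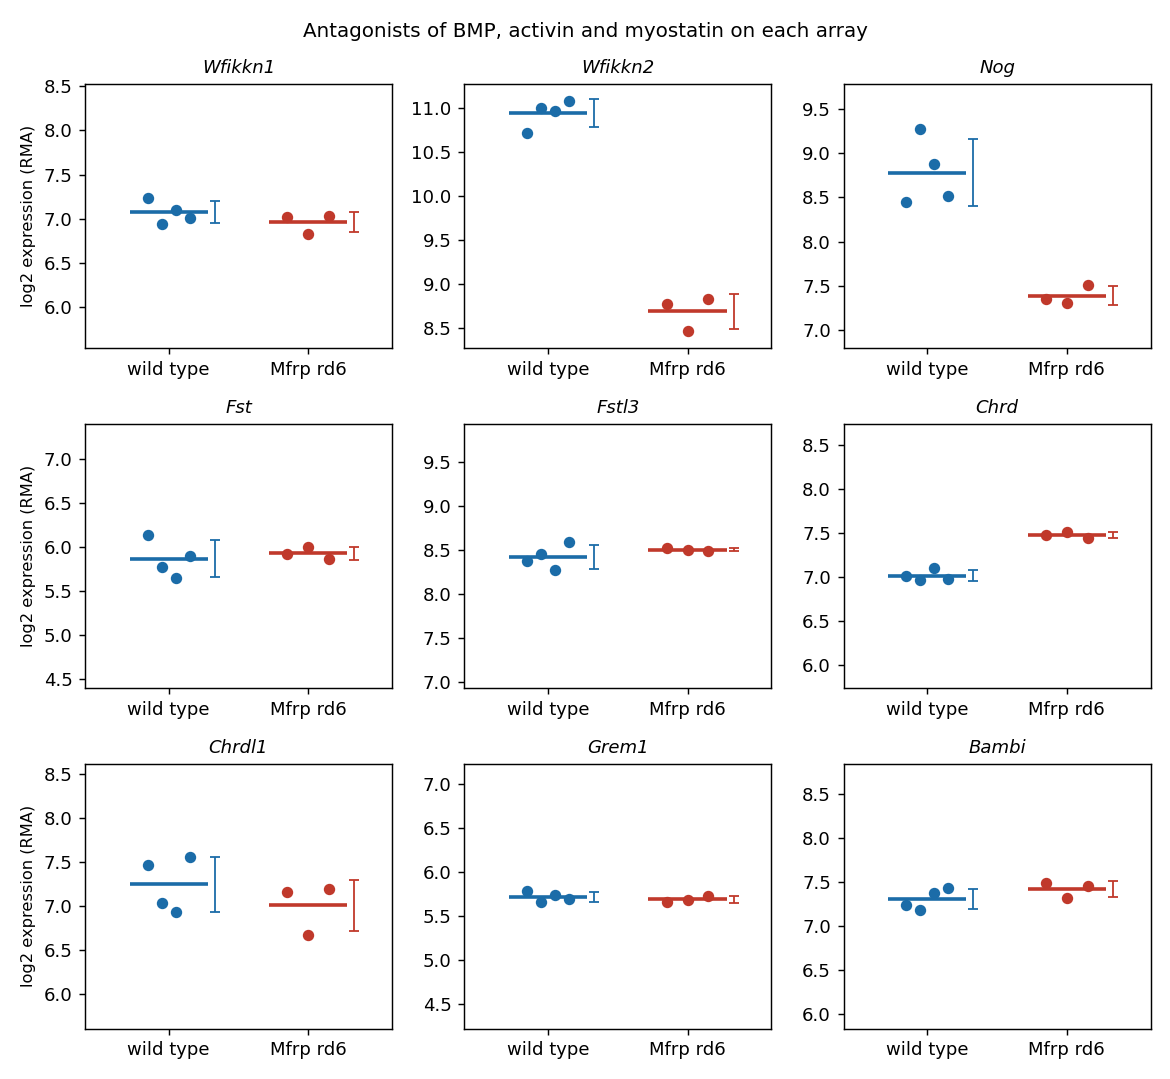
Log2 expression of the 9 antagonists, with 1 point per array (4 wild type in blue, 3 Mfrp rd6 in red), horizontal lines at group means and bars for 1 SD on each side. Every panel spans the same number of log2 units; levels are not comparable between genes. The groups are apart for Wfikkn2 (10.94 against 8.69), Nog (8.78 against 7.39) and Chrd (7.01 against 7.47) and overlap for the other 6.

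The rest of the pathway was described through 8 lists with 132 genes, of which 123 were measured. These genes were not on the list of 9, and their calls come from the limma fit over all genes. In total 4 rose and 6 fell in Mfrp rd6, which is 8.13% called against 2.15% of all genes, and their median difference was -0.01. The lists were chosen with earlier results of these data known, so their counts are a description and support nothing by themselves. With WT replicate 3 and Mfrp rd6 replicate 2 both left out, 2 rose and 1 fell. With the muscle mean as a covariate 0 rose and 1 fell, in a fit that called 52 of all genes. With the endothelial mean 0 rose and 1 fell, and 62 of all genes were called.

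Among 29 other antagonists and modulators, 4 fell and 0 rose, with a median of -0.07. Decorin (Dcn), a small matrix proteoglycan that binds TGF-beta, read 9.80, 10.17, 10.10 and 10.44 in WT and 9.22, 8.97 and 9.42 in Mfrp rd6. It fell by 0.92 on the log2 scale (SE 0.15, limma adjusted p = 0.014), with every mutant array below every WT array. Decorin is also a fibroblast marker, and the mean of 7 fibroblast markers, Dcn among them, was 6.84 to 6.95 in WT and 6.53 to 6.73 in Mfrp rd6. The part of fibroblasts in the decorin result was not tested. Dcn passed in 14 of 18 alternatives. Its adjusted p was 0.0532 and 0.055 with Mfrp rd6 replicate 1 or 2 left out, 0.111 with WT replicate 3 and Mfrp rd6 replicate 2 both left out, and 0.518 with the muscle mean as a covariate.

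Smoc1, a matrix protein of basement membranes that restrains BMP signalling, fell from 7.34, 7.61, 7.72 and 7.65 to 7.10, 6.84 and 6.93. The fall was 0.62 (SE 0.10, adjusted p = 0.0154) and passed in 11 of 18 alternatives. Its adjusted p was 0.0669 and 0.0556 with Mfrp rd6 replicate 2 or 3 left out, 0.138 with WT replicate 3 and Mfrp rd6 replicate 2 both left out, and 0.23, 0.148 and 0.0789 with the muscle, endothelial and rod means as covariates. Htra1, a secreted serine protease that restrains TGF-beta family signalling, read 8.57 to 8.85 in WT and 8.27, 8.00 and 8.30 in Mfrp rd6. Its difference of -0.53 (SE 0.10, adjusted p = 0.0267) passed in 8 of 18 alternatives, and not without WT replicate 1, 2 or 4 or Mfrp rd6 replicate 1 or 2 (adjusted p up to 0.0898). Fstl4, a follistatin-like protein, read 7.40 to 7.56 in WT and 7.01, 6.68 and 7.10 in Mfrp rd6. Its difference of -0.54 (SE 0.10, adjusted p = 0.0286) passed in 7 of 18 alternatives, and among the fits that left out 1 array only in that without Mfrp rd6 replicate 3. With the muscle mean as a covariate the difference was -0.29 for Fstl4 and -0.26 for Htra1.

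Of 17 BMP and GDF ligands, 2 fell and 0 rose, with a median of 0.00. Bmp2 read 9.39, 9.32, 9.36 and 9.38 in WT, within 0.07 of each other, and 8.95, 8.83 and 8.71 in Mfrp rd6. The fall of 0.53 (SE 0.07, limma adjusted p = 0.00696) passed in each of the 7 fits with 1 array left out. It did not pass with the endothelial mean (adjusted p = 0.311) or the muscle mean (adjusted p = 0.212) as a covariate, with WT replicate 3 and Mfrp rd6 replicate 2 both left out (adjusted p = 0.0745) or with the replicate number as a block (adjusted p = 0.0539). Bmp6 read 10.08, 10.02, 10.37 and 10.08 in WT and 9.55, 9.82 and 9.35 in Mfrp rd6. Its difference of -0.56 (SE 0.12) lay at the edge of the threshold (adjusted p = 0.049999) and did not pass without any 1 of the arrays except Mfrp rd6 replicate 2 (adjusted p up to 0.147), nor after quantile normalization (adjusted p = 0.0587). With the muscle mean as a covariate the Bmp6 difference was -1.03 (adjusted p = 0.0396). Bmp4, bright on these arrays and named after its values were seen, read 12.00 to 12.06 in WT and 11.76, 11.83 and 11.59 in Mfrp rd6. Its difference of -0.30 did not pass (adjusted p = 0.0872), although the arrays did not overlap.

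None of the ligands of the activin and myostatin branch, which Wfikkn2, Fst and Fstl3 bind, passed the test. Of 11 activin, myostatin, nodal and TGF-beta ligands, 0 rose and 0 fell by limma. An unadjusted p under 0.05 was reached by 1, a count given without the share of all genes. The brightest, Tgfb2, read 9.20, 8.81, 8.78 and 9.33 in WT and 9.28, 8.91 and 9.41 in Mfrp rd6, a difference of 0.17 (SE 0.16, adjusted p = 0.691). Its high arrays were the same as those of Chrdl1. Mstn, Inhba and Gdf11 are named here as ligands that Wfikkn2, Fst or Fstl3 bind. Mstn and Inhba were dim, with means of 4.25 and 5.47 in WT and 4.38 and 5.31 in Mfrp rd6. Such low values limit what can be seen of a difference. Gdf11 had a mean of 8.90 in WT and 8.72 in Mfrp rd6, a difference of -0.18 (SE 0.09, limma adjusted p = 0.371).

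Of 18 receptors and co-receptors, 1 rose and 0 fell, with a median of 0.00. The riser was Rgma, a membrane-anchored BMP co-receptor, with WT arrays at 8.54, 8.51, 8.55 and 8.67 and Mfrp rd6 arrays at 9.02, 8.93 and 8.82. Its rise of 0.36 (SE 0.08, adjusted p = 0.0463) passed in 5 of 18 alternatives, and in 0 of the 7 with a single array omitted (adjusted p 0.051 to 0.157). With each array centred on its median, Rgma did not pass either (0.34, adjusted p = 0.0701).

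Among 17 SMADs and their intracellular regulators, 0 rose and 0 fell by limma, with 6 at an unadjusted p under 0.05 and a median of 0.02. The brightest, the ubiquitin ligase Nedd4l, differed by 0.16 (SE 0.07, adjusted p = 0.313). Of 7 proteases that mature the ligands or cleave their antagonists, 0 rose and 0 fell, with 2 at an unadjusted p under 0.05. The brightest of them, the proprotein convertase Furin, differed by -0.06 (SE 0.07, adjusted p = 0.732). The share of all genes at an unadjusted p under 0.05 is not given here, so nothing is read from the counts at that p.

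Among 12 genes known to respond to BMP signalling, 2 rose and 0 fell, and all 12 differences were positive, with a median of 0.22 against -0.02 for all genes. Like the other lists, this one was chosen with earlier results known, and these counts are a description. Id3, an inhibitor of basic helix-loop-helix factors, read 8.35, 8.25, 8.33 and 8.42 in WT and 8.82, 8.78 and 9.05 in Mfrp rd6. It rose by 0.55 (SE 0.08, limma adjusted p = 0.0112), with every mutant array above every WT array. Id2, of the same family, read 11.73, 11.73, 11.66 and 11.74 in WT and 12.14, 12.19 and 12.06 in Mfrp rd6. Id3 passed in 14 of 18 alternatives and Id2 in 11. Id2 rose by 0.42 (SE 0.07, adjusted p = 0.013) and its adjusted p was 0.0571 and 0.0599 with Mfrp rd6 replicate 1 or 2 left out. Id1, named after its values were seen, differed by 0.49 (SE 0.11) and narrowly missed the threshold (adjusted p = 0.0504). It read 9.19, 9.30, 9.64 and 9.42 in WT and 9.91, 9.78 and 9.94 in Mfrp rd6, without overlap.

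The Id genes are also known from endothelial cells. The mean of the endothelial markers was higher on every mutant array than on any WT array, all 7 markers had a positive difference, and 1 was called. With that mean as a covariate the difference was 0.41 for Id3 (adjusted p = 0.435), 0.47 for Id2 (adjusted p = 0.201) and 0.24 for Id1. Id3 and Id2 also did not pass with the muscle mean (adjusted p = 0.181 and 0.403), the rod mean (adjusted p = 0.0616 and 0.0825) or with WT replicate 3 and Mfrp rd6 replicate 2 both left out (adjusted p = 0.0594 and 0.136). Because the endothelial and muscle means each lay higher on every mutant array, fits with these covariates cannot tell those cells apart from genotype. The part of endothelial cells was thus not tested, nor was that of microglia, whose markers differed most.

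Of 12 genes known to respond to TGF-beta or activin, 1 rose and 0 fell, with a median of -0.02. Thrombospondin 1 (Thbs1), a matrix protein known to activate latent TGF-beta, read 11.96, 11.56, 12.08 and 11.85 in WT and 12.62, 12.59 and 12.51 in Mfrp rd6. The rise of 0.71 (SE 0.11, limma adjusted p = 0.0137) had an adjusted p of 0.058 and 0.0542 with Mfrp rd6 replicate 1 or 2 left out. It was 0.47 with the muscle mean (adjusted p = 0.59) and 0.67 with the endothelial mean (adjusted p = 0.358) as a covariate.

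**Figure D2:**
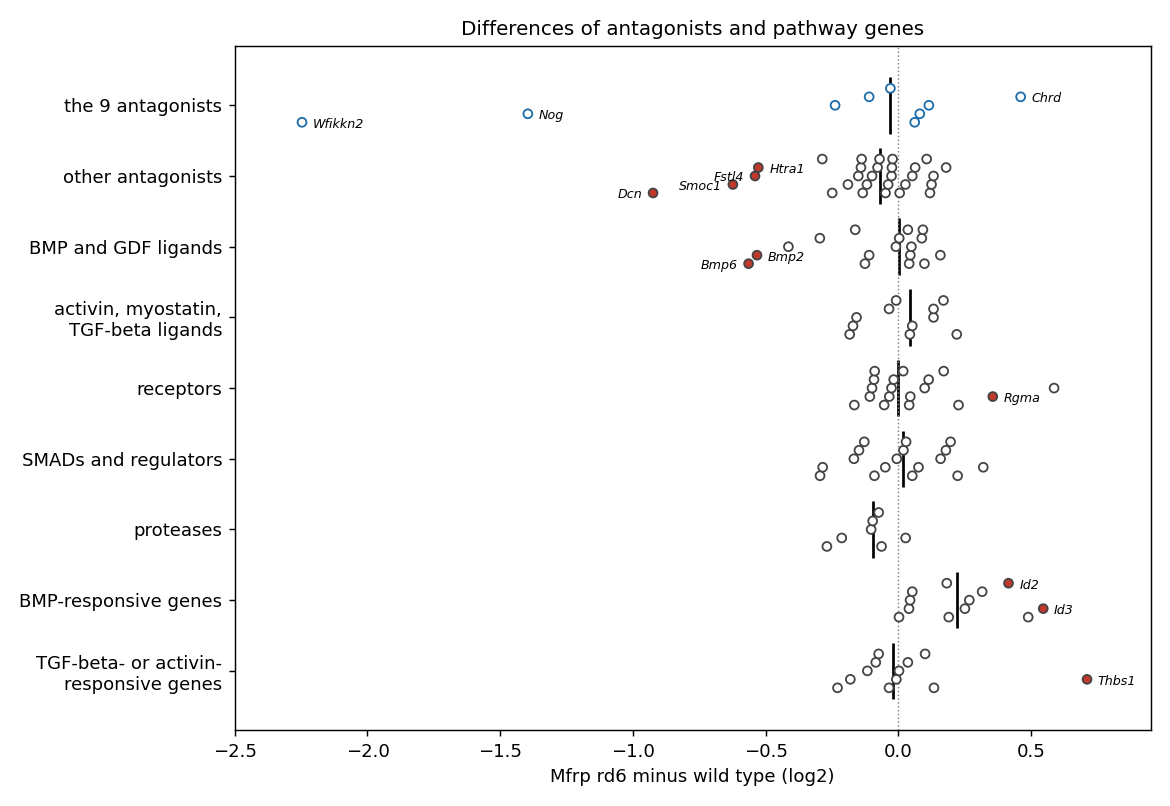
Difference in log2 expression (Mfrp rd6 minus wild type) of each measured gene by role, with 1 circle per gene and black bars at group medians. Filled circles passed the limma test over all genes; the 9 antagonists in the top row are all drawn open, because the same comparison helped to choose them. Wfikkn2 (-2.25) and Nog (-1.40) lie far to the left, and all 12 BMP-responsive genes lie at or right of 0.

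**Figure D3:**
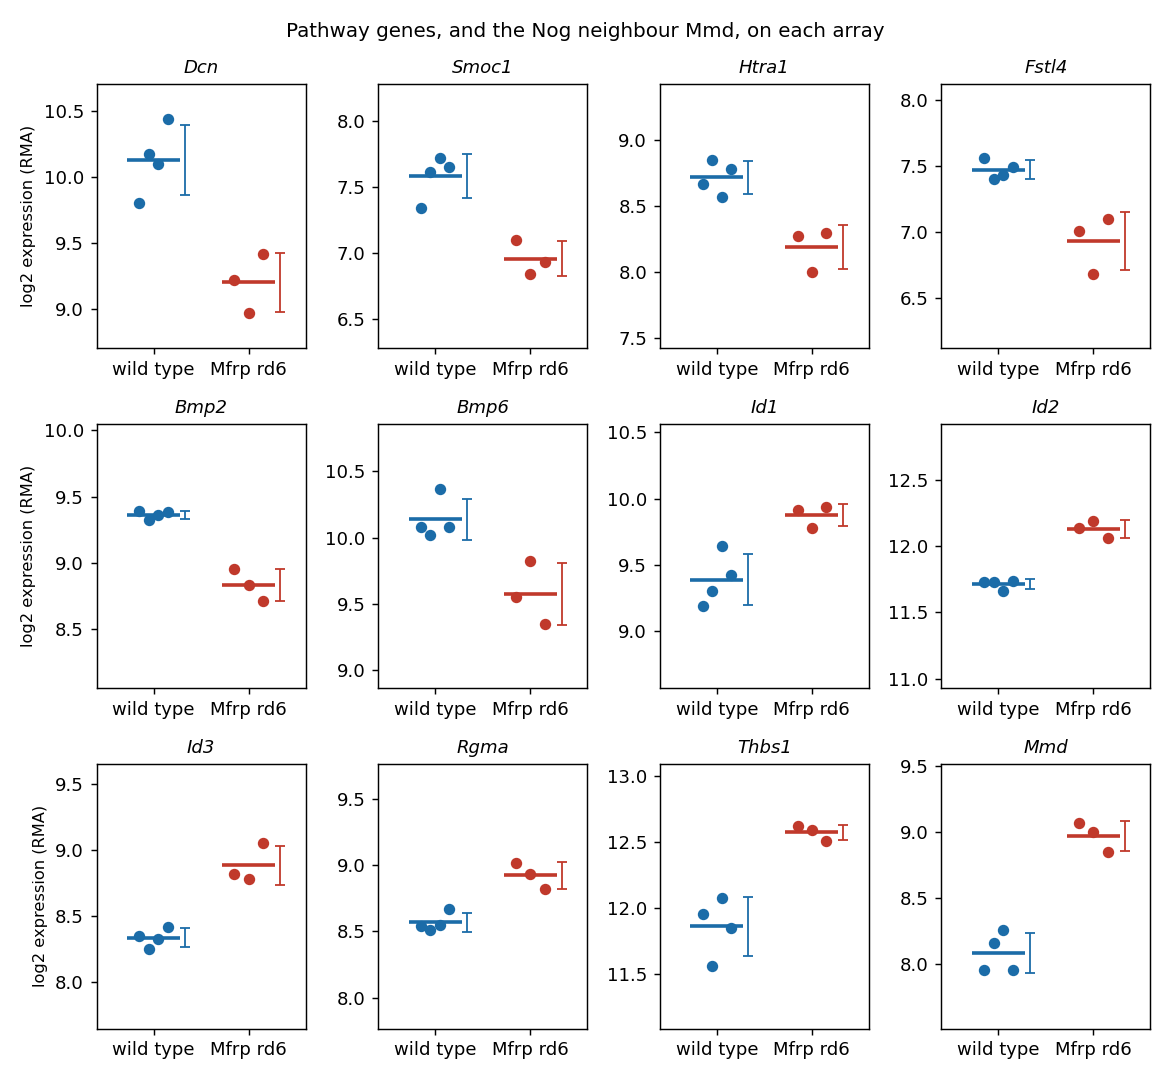
Log2 expression of 11 pathway genes and of Mmd, a chromosomal neighbour of Nog, with 1 point per array, horizontal lines at group means and bars for 1 SD on each side. Every panel spans the same number of log2 units. The 3 Mfrp rd6 arrays lie below all 4 wild-type arrays for Dcn, Smoc1, Htra1, Fstl4, Bmp2 and Bmp6 and above them for Id1, Id2, Id3, Rgma, Thbs1 and Mmd.

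Wfikkn2 and Nog both lie on chromosome 11 in the RefSeq gene table, the only 2 of the 9 on that chromosome, so the measured genes next to each were examined. Of the 10 measured genes beside Wfikkn2, 5 on either side, 0 changed by limma. An unadjusted p under 0.05 was reached by 3, again a count without the share of all genes beside it. The differences of the 10 lay between -0.21 (Spag9) and 0.12 (Spata20). The nearest on either side, Tob1 and Luc7l3, differed by -0.10 and -0.19.

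Of the 10 measured genes beside Nog, 1 changed, and it rose. Mmd, a membrane protein named for the differentiation of monocytes to macrophages, read 7.96, 8.16, 8.26 and 7.96 in WT and 9.07, 9.0 and 8.85 in Mfrp rd6. The rise of 0.89 (SE 0.10, limma adjusted p = 0.00139) passed in each of the 7 fits with 1 array left out. It did not pass with the muscle mean (0.60, adjusted p = 0.242) or the endothelial mean (0.90, adjusted p = 0.0937) as a covariate. The microglia and macrophage markers were higher on the same arrays, by 2.06 in the mean, and their part in the Mmd result was not tested. The other 9 neighbours differed by -0.51 to 0.13, and the lowest of them, Ankfn1, is the measured gene next to Nog and did not pass (adjusted p = 0.0712).

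**Figure D4:**
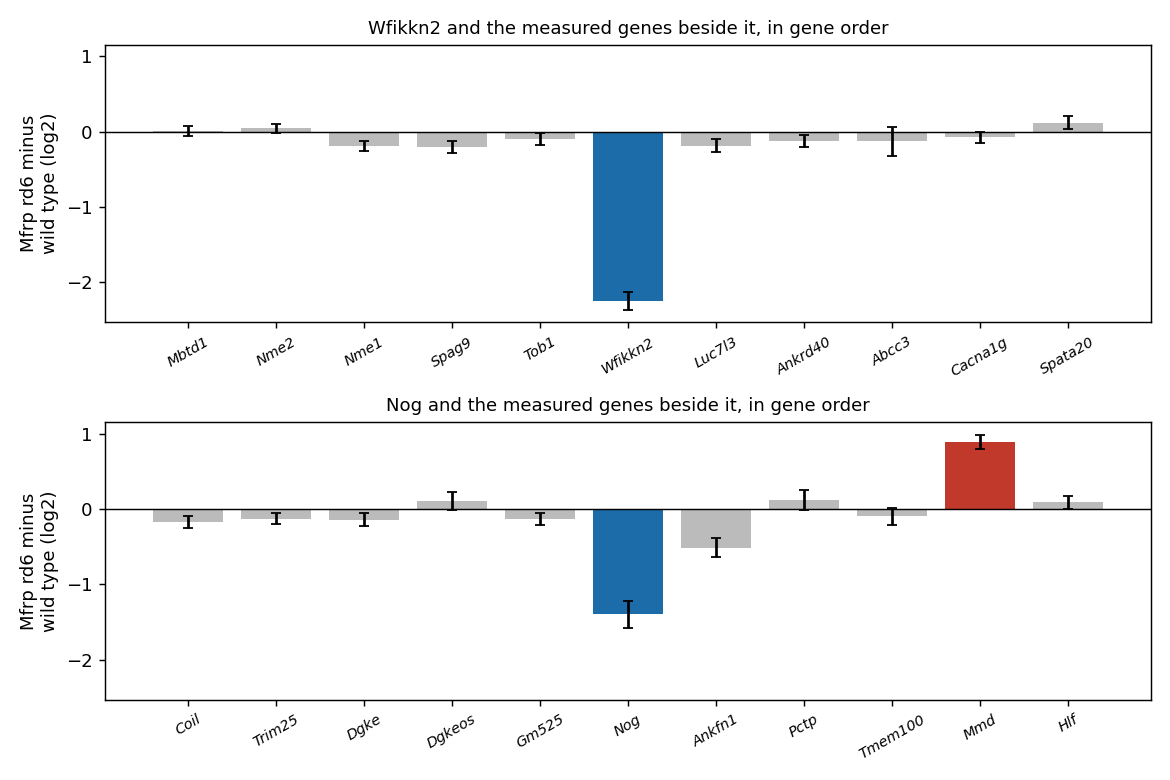
Difference in log2 expression (Mfrp rd6 minus wild type) of Wfikkn2 (top) and Nog (bottom), in blue, and of the 5 measured genes on each side in gene order, with bars for 1 SE. Red marks the neighbour that passed the test, Mmd (0.89). Grey marks the others, which lie between -0.21 and 0.12 beside Wfikkn2 and between -0.51 and 0.13 beside Nog.

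Genes whose pattern over the 7 arrays was most like that of Wfikkn2 were ranked by Pearson's r, as a description of arrays that fall into 2 groups, so that r mostly restates the difference between them. Among 17039 genes, the highest were Tiam1 (r = 0.990), an activator of the small GTPase Rac, Ankrd27 (r = 0.989), a regulator of vesicle traffic to melanosomes, and the uroplakin Upk3b (r = 0.988). The glycosyltransferase Alg9 (r = 0.988) and the phosphatase subunit Ppp2r5a (r = 0.987) followed. An r of at least 0.9 with Wfikkn2 was reached by 423 of the 17039 genes. The size of the difference was not alike among the 5. It was -2.71 for Upk3b, from 8.93, 9.95, 9.72 and 9.61 in WT to 6.80, 6.74 and 7.0 in Mfrp rd6, but -0.19 for Tiam1. Tiam1 and Ankrd27 did not pass the limma fit over all genes (adjusted p = 0.182 and 0.135), while Upk3b, Alg9 and Ppp2r5a did. Upk3b was the gene of the 5 that came near Wfikkn2 in size, and like Wfikkn2, Tiam1 and Ankrd27 it had its lowest WT value on replicate 1 and its lowest mutant value on replicate 2. A ranking by r over the same arrays favours such a shared order.

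With Nog, 482 of the 17039 genes had an r of at least 0.9. The 5 genes most like Nog were, as Nog was, highest on WT replicate 2 and next on replicate 3, an order that the ranking itself favours. They were Dnm3 (r = 0.995 over 7 arrays), a dynamin, Cyp27a1 (r = 0.995), a mitochondrial sterol hydroxylase, Rnf34 (r = 0.991), a ubiquitin ligase, the tight junction protein Ocln (r = 0.989) and the proteasome subunit Psmc5 (r = 0.988). Dnm3 read 6.60, 6.87, 6.77 and 6.63 in WT and 6.21, 6.11 and 6.24 in Mfrp rd6. Cyp27a1 read 9.98 to 10.23 in WT and 9.72, 9.65 and 9.74 in Mfrp rd6. Their differences of -0.53 and -0.37 were smaller than that of Nog. Dnm3 and Cyp27a1 passed the limma fit over all genes, while Rnf34, Ocln and Psmc5 did not (adjusted p = 0.195, 0.166 and 0.217). For both Nog and Wfikkn2 the lowest WT array was replicate 1. The highest was replicate 2 for Nog and for the second Wfikkn2 probe set, and replicate 4 for the brighter one.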

How the data were processed

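RNA of 7 mouse RPE samples was hybridised to Affymetrix gene arrays. The authors deposited log2 values, 1 per probe set and array, made with Affymetrix Expression Console and RMA per the submitters' processing notes. The versions used are not given in sources available here. RMA as a method subtracts background and equalises the arrays, which compresses differences of dim probe sets. The values ran from 1.91 to 13.81.

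Of 35556 probe sets, 21789 carried 1 symbol in the platform annotation, 1621 several and 12146 none. Only those with 1 symbol were used, and the one with the highest mean stood for a gene (19938 genes). All genes were fitted with limma 3.58.1 (R 4.3.3; 5 residual and 4.56 prior degrees of freedom) as Mfrp rd6 minus WT, adjusted by Benjamini-Hochberg. Promoters and gene order came from RefSeq (GRCm38.p6). Tables and figures were made with Python 3.11.15, pandas 2.3.3 and matplotlib 3.10.9. The fit was tested on simulated data with 200 changed genes. It recovered 64% of the changes of 0.5 log2 units and 98% of those of 1, with 11 false calls among 173. Smaller changes can thus be missed.

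The 9 genes, the 8 lists and the markers were chosen with earlier results of these data known. Named were the 9, each list's genes past the threshold (up to 4, otherwise its brightest), the 5 genes most like Wfikkn2 and like Nog (without symbols of predicted genes, clones, small RNAs and olfactory or vomeronasal receptors), and neighbours past the threshold; others are marked. Of the listed pathway genes, 9 matched no probe set with 1 symbol. The alternatives were other normalizations, a filter at a mean of 6, the mean of probe sets, array weights, robust moderation with a variance trend, blocking on replicate number, covariates from marker means and omission of arrays. The number of arrays limits the precision; the median SE of a difference was 0.09.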

Additional observations from a re-analysis of the deposited data

Results flagged for a closer look

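In 35 named genes the 4 WT arrays were checked for a single array far from the others, and 2 genes met the criterion, where chance gives about 1 in 20. For Id2, WT replicate 3 read 11.66 against 11.73 to 11.74 on the other WT arrays, a gap of 0.875 of the range. For Tiam1, WT replicate 1 read 10.13 against 10.18 to 10.19, a gap of 0.833 of the range. The Mfrp rd6 group has 3 arrays and was not checked in this way.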

How the results depend on the processing

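Of the 18 alternatives, the endothelial mean as a covariate and leaving out WT replicate 3 with Mfrp rd6 replicate 2, were 2 chosen after seeing the data. Differences of single genes were recomputed only for those named in the comparison. Of these, Wfikkn2, Nog, Chrd, the 10 called pathway genes and Mmd kept their sign. So did Wfikkn1, Grem1, Nedd4l, Furin, Id1 and Bmp4, none of them called. Fst, Fstl3, Chrdl1, Bambi and Tgfb2, also not called, changed sign in at least 1 alternative. The called genes were picked by their difference on the same arrays, so a kept sign supports nothing by itself. Wfikkn2 stayed between -2.47 (endothelial mean) and -2.13, Nog between -1.51 and -1.23 and Chrd between 0.34 (muscle mean) and 0.50. When 1 array was left out, the ranges were -2.32 to -2.14 for Wfikkn2, -1.51 to -1.23 for Nog and 0.44 to 0.49 for Chrd.

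The count of changed genes, 429, depended on the fit. It was 718 with a variance trend and robust moderation, 679 with array weights, 184 with the rod mean, 52 with the muscle mean, 62 with the endothelial mean and 193 without WT replicate 3 and Mfrp rd6 replicate 2; the cause was not tested. It was 211 to 325 when 1 array was left out, with fewer samples. Pathway genes that rose, 4, became 0 with the muscle or endothelial mean, 1 with the rod mean, 2 without both arrays and 1 to 4 when 1 array was left out. Those that fell, 6, became 1 with the muscle or endothelial mean, 2 with the rod mean, 1 without both arrays and 2 to 4 when 1 array was left out. Neighbours of Nog that changed, 1, were 2 with median centring or the variance trend and 0 with the endothelial mean. With the muscle mean the count was again 1, but Mmd did not pass there (limma adjusted p = 0.242), so it was another neighbour. The neighbours other than Mmd that passed in these fits are not named here.

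With the replicate block, 225 genes changed and 1 pathway gene fell. Wfikkn2, Nog and Chrd differed by -2.20, -1.48 and 0.45. Deviations of same-numbered arrays correlated at -0.303, -0.073 and 0.036 across genes. These values give no sign that the numbers pair the samples, but they cannot exclude it. Dim probe sets such as those of Fst and Grem1 limit what can be seen of small differences.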
